A study of Mus musculus with 36 samples.

Results

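The genes of the proteasome and of its activators were described in the liver and the inguinal fat (iWAT, white adipose tissue under the skin) of mice kept for 16 weeks on 3 diets. Members were all genes whose symbol begins with Psma, Psmb, Psmc, Psmd, Psme or Psmf followed by a digit, pseudogenes left out, and 45 of the 16060 genes in any of the authors' deposited gene tables met this rule. Each table holds 44 of them: the liver tables lack Psmc3ip and the iWAT tables lack Psma8. Psmc3ip, which carries the prefix but is a partner of the recombination machinery and no proteasome subunit, was kept in the counts and described apart. Psma8 is an alpha subunit of germ cells, and Psme2b is a near copy of Psme2, so reads of Psme2 and Psme2b may have been divided between them.

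All mice were C57BL/6J. The AL group was fed ad libitum, the CR group was calorie-restricted, and the TR.al group, called TR here, was time-restricted without calorie restriction; the series asks whether fasting without a loss of calories gives the transcriptional response of a CR diet. Every diet in every tissue, 6 groups in all, has 6 bulk RNA-seq libraries of total RNA, which makes 36 libraries from 20 mice, 16 of them giving both tissues and 4 giving 1 tissue. An animal number that appears in both CR and TR labels was counted as different mice. The sources used here give neither the age nor the sex of the mice, nor the hour of tissue collection relative to feeding. The deposited tables hold 1 comparison of a pair of groups each and no value per library, so levels per mouse, their spread and the depth of each library were not analysed here. A difference is given as a log2 fold change, the FDR is the p-value adjusted over all genes of a table, and "fell" or "rose" is written for an FDR under 0.05. The approximate standard error (SE) and the approximate 95% interval of a difference were computed from the authors' likelihood-ratio statistic.

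The proteasome is the protease that degrades proteins tagged with ubiquitin. Its 20S core is a barrel of outer alpha rings, which gate the entrance, and inner beta rings, in which the subunits encoded by Psmb5, Psmb6 and Psmb7 cut peptide bonds. The 19S regulator caps the core: its base holds a ring of ATPases, which unfold substrates, beside non-ATPase subunits that bind ubiquitin and the core, and its lid removes the ubiquitin chain. In cells exposed to interferon, Psmb8, Psmb9 and Psmb10 replace the constitutive catalytic subunits to form the immunoproteasome, and the PA28 caps (Psme1 and Psme2, or Psme3 in the nucleus) open the core independently of ubiquitin. When the proteasome is inhibited, the transcription factor NFE2L1 raises the genes of the core and of the 19S regulator together through antioxidant response elements.

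In liver, most genes of the 19S regulator and part of the alpha ring of the core fell on both diets, while the catalytic subunits of the core, the immunoproteasome and the PA28 caps had no member that passed as lower. In CR against AL, 17 of 44 members fell and 0 rose, where 5.37% of all genes tested fell and 5.79% rose. The log2 fold change lay below 0 for 36 of the 44 members, against 50.5% of all genes, and the median of the members was -0.26, against -0.0038 over all genes. In TR against AL, 23 of 44 members fell and 1 rose, where 9.54% of all genes fell and 9.35% rose. Values below 0 were found for 37 of the 44, against 50.0% of all genes, and the median was -0.33 against -0.0005. In liver 36 of the 44 members were strongly expressed, and the background among such genes was higher: of genes whose log2 mean CPM (the mean count scaled to library size) was 5 or more, 7.21% fell in CR and 12.6% fell in TR, while 11.5% rose in TR. With p-values from a t distribution of 10 degrees of freedom in place of the chi-square tail, 10 members fell in CR and 15 in TR, and 0 rose. The share of all genes in that setting is not given here, so these counts show no excess by themselves. Both diets were compared with the same AL livers, so the 2 sets of values are given side by side and are not independent of each other. The plot of each member's liver value with its interval shows the filled points on the left of 0 concentrated among the 19S genes.

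**Figure D1:**
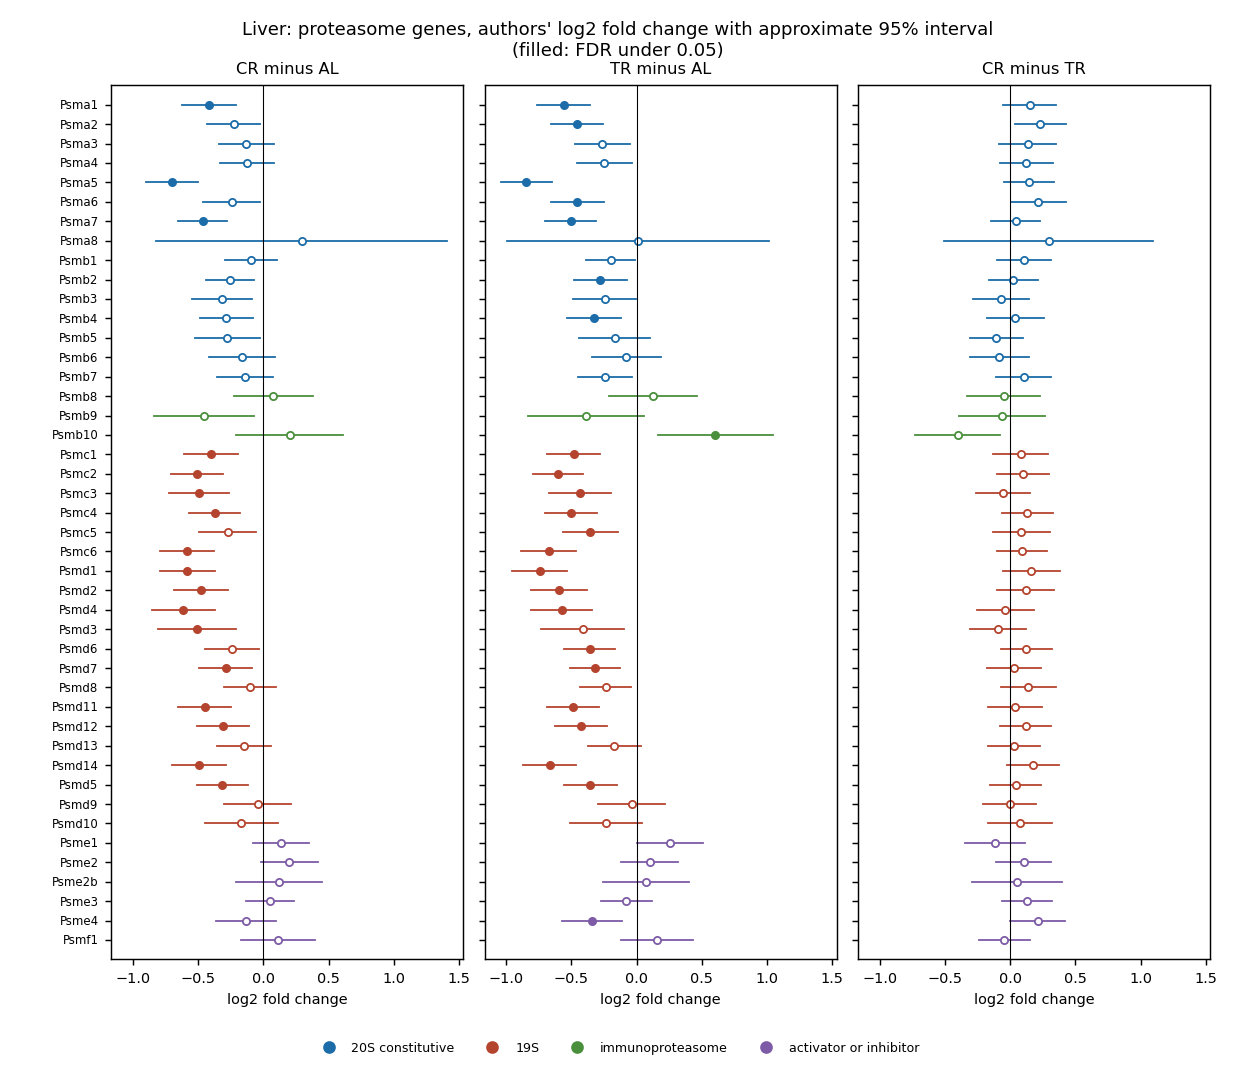
Log2 fold change of each proteasome gene in liver (x axis) for CR minus AL, TR minus AL and CR minus TR, from the authors' deposited tables, with lines for the approximate 95% interval and filled points for an FDR under 0.05. The 19S genes lie left of 0 in both diets against AL, the PA28 genes lie near 0, and no point is filled in CR minus TR.

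The base of the 19S regulator had falls in nearly all of its genes. Of its 9 genes, 8 fell in CR with a median of -0.49 and 9 fell in TR with a median of -0.58. Psmc6, an ATPase of the ring, fell by 0.58 in CR (SE 0.11, FDR 2.99e-06), or 33.3%, and by 0.67 in TR (SE 0.11, FDR 1.65e-08), or 37.4%, in the authors' deposited tables. Psmc2, another ATPase, fell by 0.51 in CR (FDR 2.36e-05) and 0.60 in TR (FDR 4.23e-08) there. The other ATPase genes, Psmc1, Psmc3, Psmc4 and Psmc5, had values between -0.49 and -0.27 in CR and between -0.50 and -0.36 in TR in the authors' deposited tables. Of all 6, Psmc5 in CR, at -0.27 with an FDR of 0.0944, was the value that did not pass. All 3 non-ATPase base genes fell on both diets. Psmd1, a scaffold of the base, had -0.58 in CR (FDR 4.05e-06) and -0.74 in TR (FDR 4.16e-10) in the authors' deposited tables. Psmd2, the companion scaffold that docks shuttle proteins, had -0.48 and -0.60 (FDR 0.000186 and 1.81e-06) in the same tables. Psmd4, a ubiquitin receptor, had -0.61 in CR (FDR 2.53e-05) and -0.58 in TR (FDR 3.5e-05) there. These base genes thus fell by amounts whose approximate intervals overlap one another.

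In the lid, 5 of 8 genes fell on each diet, with medians of -0.30 in CR and -0.39 in TR. Psmd14, the deubiquitinase that removes the chain, fell by 0.49 in CR (SE 0.10, FDR 9.33e-05) and by 0.67 in TR (SE 0.10, FDR 9.17e-09) in the authors' deposited tables. Psmd11, a lid scaffold, fell by 0.45 and 0.49 (FDR 0.000519 and 4.87e-05) there. Psmd7, the partner of Psmd14 in the lid, and Psmd12 also fell on both diets. The remaining calls differed in their side of the threshold between diets: Psmd3 had -0.51 in CR (FDR 0.0123) and -0.41 in TR (FDR 0.0536), and Psmd6 had -0.24 in CR (FDR 0.129) and -0.36 in TR (FDR 0.00337) in the authors' deposited tables. Psmd8 and Psmd13 did not pass in either diet. Among the chaperones that assemble the base, Psmd5 fell by 0.31 in CR (FDR 0.0203) and 0.35 in TR (FDR 0.0064), whereas Psmd9 and Psmd10 did not pass, with values from -0.24 to -0.04 over both diets in the authors' deposited tables.

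In the 20S core, 3 of 15 genes fell in CR and 7 of 15 in TR. The smallest FDR of all members belonged to Psma5, an alpha-ring gene, which fell by 0.70 in CR (SE 0.10, FDR 5.62e-10), or 38.4%, and by 0.84 in TR (SE 0.10, FDR 1.23e-14), or 44.3%, in the authors' deposited tables. Psma7, also of the alpha ring, had -0.46 (FDR 4.31e-05) and -0.51 (FDR 1.16e-05) there. Psma1, of the same ring, had -0.41 (FDR 0.00196) and -0.56 (FDR 1.69e-06). Psma2 and Psma6 fell in TR, by 0.46 each (FDR 0.000137 and 0.000211), and stood at -0.23 and -0.24 in CR (FDR 0.157 and 0.16) in the authors' deposited tables. The alpha genes Psma3 and Psma4 did not pass on either diet, with values between -0.26 and -0.13, so neighbouring subunits of one ring differed in their values.

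In the beta ring the genes that passed did so in TR. Of the 4 beta genes without an active site, 0 of 4 passed in CR, and Psmb2 and Psmb4 fell in TR, by 0.28 (FDR 0.0381) and 0.32 (FDR 0.0162) in the authors' deposited tables. The 3 constitutive catalytic genes passed on neither diet. Psmb5, the chymotrypsin-like subunit, had -0.27 in CR (interval -0.52 to -0.02, FDR 0.161) and -0.17 in TR (interval -0.44 to 0.10, FDR 0.426) in the authors' deposited tables. Psmb6, the caspase-like subunit, had -0.16 (FDR 0.5) and -0.08 (FDR 0.731). Psmb7, the trypsin-like subunit, had -0.14 (FDR 0.479) and -0.24 (FDR 0.0954) there. The intervals of Psmb5 and Psmb7 reach to falls of the size seen for several 19S genes, so a smaller fall of the catalytic genes is a description here and was not tested. Psma8, listed at a log2 mean CPM of -0.18 in TR against AL, had values of 0.29 in CR and 0.01 in TR with an interval of about 1 log2 unit on each side.

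None of the 3 immunoproteasome genes passed as lower in the authors' edgeR test on either diet. Psmb8 had 0.08 in CR and 0.13 in TR (FDR 0.825 and 0.661), and Psmb9 had -0.46 and -0.39 (FDR 0.12 and 0.232) in the authors' deposited tables. Psmb10 rose in TR, by 0.60 (SE 0.22, FDR 0.0417), or 51.7%, as the single member to rise in liver, and it stood at 0.20 in CR (FDR 0.624) in the authors' deposited tables. This rise did not pass with a t distribution of 10 degrees of freedom. The main transcript of Psmb10 had 0.68 in TR (FDR 0.16 in the authors' edgeR test of transcripts). A rise was called for 9.35% of all genes in TR. The PA28 genes Psme1, Psme2, Psme2b and Psme3 lay between 0.05 and 0.20 in CR and between -0.08 and 0.25 in TR, and 0 of 4 passed on either diet. Psmf1, the inhibitor PI31, had 0.11 and 0.16 (FDR 0.712 and 0.484). Psme4, the PA200 cap that binds the core in place of the 19S regulator, fell in TR by 0.34 (FDR 0.0224) and had -0.13 in CR (FDR 0.552) in the authors' deposited tables. Of the caps, then, the 19S and PA200 genes held the falls.

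Reads of some members cannot be kept apart from those of a neighbour on the other strand if strand was not used in counting. The sources used here are silent on this. Where the neighbour lies on the same strand, strand would not separate the shared bases. In the GENCODE M21 annotation (GRCm38), where all 45 members were found on 16 chromosomes, 14 share exon bases with another gene and 9 with a protein-coding one. Psmb9 shares 212 exon bases, 5.79% of its own, with the oppositely oriented Tap1, the peptide transporter of antigen presentation, which fell by 0.67 in CR (FDR 0.0126) and stood at -0.33 in TR (FDR 0.33) in the authors' deposited tables. Psmb7 shares 11.8% of its exon bases with Nek6 on the other strand, and Psmd1 shares 3.47% with Htr2b on the other strand and 4.14% with Gm21972 on its own. Psma5 shares 4.54% with an antisense gene, 1700010K24Rik. On their own strand, Psmb5 shares 12.1% with the microRNA gene Mir686 and Psme2b shares 4.9% with 9930111J21Rik1.

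Fewer calls were made in the liver transcript tables, in which more features were tested. In CR, 9 of 120 transcripts of the members fell and 0 rose, where 1.21% of all transcripts fell and 1.45% rose, and in TR 13 of 121 fell, where 1.99% did. The transcript with the highest mean of each gene had the same sign as its gene for 17 of the 17 called genes in CR and for 24 of the 24 in TR, and it passed as lower for 8 of the 17 and 12 of the 24. Its reads are part of those of its gene, so the shared sign is no independent support. The main transcript of Psma5 had -0.71 in CR (FDR 6.89e-05) and -0.84 in TR (FDR 3.4e-06) in the authors' deposited transcript tables. That of the ubiquitin receptor Psmd4 had -0.74 and -0.66 (FDR 0.000323 and 0.00119) there. For the lid scaffold Psmd11 a transcript other than the main one fell, by 0.48 and 0.69 (FDR 0.0387 and 0.000352).

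Upstream sequence was read for members that moved together and for members that did not, to show whether the letters bound by NFE2L1 and NFE2L2 set them apart. The core of the antioxidant response element, TGACNNNGC on either strand, was searched in the 250 bases before each RefSeq start (GRCm38.p6), a window found for 38 members. It was present for 5 of the 38, or 13.2%, beside 11.5% of all genes with a window. Of 20 members with a window that fell in liver in TR, 2 hold it, Psmc6 and Psmd12, and of the 18 others 3 hold it, Psmb5, Psmb6 and Psmd9. The 18 others include Psmc3ip, which is no subunit and has no liver value. A match describes letters in this window and shows no binding. Psma5 is shown as the member with the smallest FDR in liver and has no match at chr3:108256676-108256925 (plus strand). Psmc6 (chr14:45329574-45329787, plus strand) and Psmd12 (chr11:107479278-107479483, plus strand) are shown as members with the core that fell, and Psmb5 (chr14:54618023-54618245, minus strand) as a catalytic member with the core that did not pass in liver. The windows are printed 5′ to 3′ on the gene's strand, ended where the annotated gene begins, and capitals mark the core.
Psma5: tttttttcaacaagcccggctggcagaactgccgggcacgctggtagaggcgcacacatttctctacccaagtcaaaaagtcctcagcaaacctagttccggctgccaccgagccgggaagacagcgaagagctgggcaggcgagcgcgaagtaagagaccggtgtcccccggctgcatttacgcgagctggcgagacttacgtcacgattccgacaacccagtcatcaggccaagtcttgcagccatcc
Psmc6: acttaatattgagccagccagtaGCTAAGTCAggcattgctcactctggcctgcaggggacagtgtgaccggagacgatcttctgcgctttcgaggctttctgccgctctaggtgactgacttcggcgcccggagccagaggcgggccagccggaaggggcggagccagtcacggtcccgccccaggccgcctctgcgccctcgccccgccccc
Psmd12: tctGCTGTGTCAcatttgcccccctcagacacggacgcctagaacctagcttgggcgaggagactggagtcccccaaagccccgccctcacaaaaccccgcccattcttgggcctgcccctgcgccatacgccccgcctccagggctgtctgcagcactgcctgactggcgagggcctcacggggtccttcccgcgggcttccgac
Psmb5: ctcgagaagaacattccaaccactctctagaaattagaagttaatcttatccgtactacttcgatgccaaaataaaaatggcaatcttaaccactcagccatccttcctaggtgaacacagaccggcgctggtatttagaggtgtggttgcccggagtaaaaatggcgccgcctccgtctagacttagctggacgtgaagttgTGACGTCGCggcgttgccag

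Motifs of other factors were searched in the same windows. The core of the interferon-stimulated response element was present for 3 of the 38 members with a window (7.89%, beside 3.46% of all genes), namely Psmb3, Psmd4 and Psmd9. The gamma-activated site core TTCNNNGAA was present for Psmb8 alone (2.63%, beside 8.13%). The CCAAT box was found for 14 members (36.8%, beside 37.5%). Both strands were searched for each motif, and the motifs were counted separately where they overlap.

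No member passed in the direct comparison of CR with TR livers. In CR minus TR, 0 of 44 members passed, where 0.31% of all genes were lower in CR and 0.159% were higher. In the authors' edgeR test, 4 members had an unadjusted p under 0.05, beside 1263 of all 12593 genes. Those 4 were Psma2 at 0.23, Psma6 at 0.22, Psme4 at 0.21 and Psmb10 at -0.40, with FDRs of 0.369, 0.474, 0.493 and 0.322 in the authors' deposited table. The approximate 95% interval lay wholly within 0.5 log2 units of 0 for 42 of the 44 members, beside 62.7% of all genes. Of the 44, 36 had a log2 mean CPM of 5 or more. Such genes have narrower intervals, with a median approximate SE of 0.114 beside 0.142 over all genes. The share among genes of similar level is not given here. The falls that passed on 1 diet alone are therefore not shown to differ between the diets.

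Genes that work with the proteasome were read from lists of the same pathway. Of 10 measured proteasome-bound factors with other names, 3 fell in CR and 4 in TR, and 0 rose. Usp14, a deubiquitinase of the 19S regulator, fell by 0.48 in CR (FDR 0.00018) and 0.67 in TR (FDR 3.34e-09) in the authors' deposited tables. Ecpas, which tethers the 19S regulator to the core, fell by 0.41 and 0.40 (FDR 0.00164 and 0.00233), and Adrm1, a ubiquitin receptor, fell in CR by 0.45 (FDR 0.0283) in the same tables. Among 11 factors that extract or carry ubiquitinated proteins, 5 fell in CR and 6 in TR, and 0 rose. Vcp, the segregase that pulls ubiquitinated proteins out of complexes, fell by 0.42 in CR (FDR 0.00873) and 0.57 in TR (FDR 8.8e-05) in the authors' deposited tables. Its cofactors Ufd1, Nploc4 and Nsfl1c and the shuttle Ubqln2 also fell on both diets, by 0.39 to 0.62 in CR and 0.46 to 0.54 in TR. The list median was -0.15 in CR and -0.35 in TR, beside -0.0038 and -0.0005 over all genes. Assembly chaperones of the core, such as Pomp, passed in 0 of 5 cases on each diet, a count close to the shares over all genes.

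The regulators and neighbours of these genes did not share 1 direction in liver. The counts below stand beside 5.37% of all genes lower and 5.79% higher in CR, and 9.54% and 9.35% in TR. Nfe2l1 had 0.16 in CR (FDR 0.364) and rose in TR by 0.28 (FDR 0.044), while Nfe2l2, its relative in the oxidative stress response, had -0.06 and -0.08 (FDR 0.84 and 0.73) in the authors' deposited tables. Of 10 regulators measured, 1 fell in CR and 2 fell in TR, Maff on both diets and Bach1, a repressor at the same elements, in TR. Other NFE2L2 targets moved both ways: of 13 measured, 4 were lower and 2 higher past the threshold in CR, against 2 lower and 1 higher in TR. Interferon response genes fell in 9 of 17 cases in CR, with 1 higher, and in 7 of 17 in TR, with 1 higher, with medians of -0.63 and -0.52. Of 13 genes of MHC class I antigen presentation, Tap1 was the 1 that fell in CR, and in TR Calr and Pdia3 fell and H2-Q7 rose.

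Some markers of other cells moved in the same liver comparisons, where 5.37% of all genes fell and 5.79% rose in CR. In TR, 9.54% of all genes fell and 9.35% rose. Erythroid markers rose in 3 of 5 cases in CR and 4 of 5 in TR, with Hbb-bs, a beta-globin gene, at 0.84 and 1.34 (FDR 0.0441 and 3.63e-05) in the authors' deposited tables. Macrophage and Kupffer cell markers lay below 0 for 10 of 10 on both diets, with 0 past the threshold in CR and 3 in TR. Hepatocyte markers rose in 2 of 9 cases on each diet, and Alb, the albumin gene, was listed at a log2 mean CPM of 16.5. Of 4 adipocyte markers measured in liver, Cidec and Cfd fell on both diets and Lipe rose in TR, and Cidec, a lipid droplet gene, had -2.65 and -2.85 (FDR 3.42e-19 and 2.05e-20) in the authors' deposited tables. Of 6 fibroblast and stellate cell markers, the collagen genes Col1a1 and Col3a1 rose on both diets, up to 1.54 for Col1a1 in TR. Of 6 endothelial markers 0 passed in CR, and Kdr fell in TR. General leukocyte markers passed in 0 of 7 cases on each diet, and lymphocyte markers in 0 of 7 in CR and 0 of 6 in TR. Skeletal muscle markers were not among the genes of the liver tables. The part of these cells in the proteasome values was not tested, and in bulk tissue fewer cells of a type and less RNA per cell cannot be told apart.

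In iWAT, most members lay above 0 on both diets, few passed the test, and the genes that rose were mainly core subunits. In CR against AL, 0 of 44 members passed, where 3.78% of all genes fell and 3.52% rose. An unadjusted p under 0.05 in the authors' edgeR test was found for 8 of the 44 members, beside 3010 of all 15295 genes. All 8 lay above 0, as did 1326 of the 3010 genes. In TR against AL, 5 of 44 rose and 0 fell, where 4.76% of all genes rose and 5.24% fell; among genes whose log2 mean CPM was 5 or more, 9.48% rose. The share of members called is thus close to that of genes of similar level. Values above 0 were found for 42 of 44 members on each diet, against 51.9% of all genes in CR and 47.5% in TR. The median was 0.33 in CR, against 0.0244 over all genes, and 0.45 in TR, against -0.0381. In iWAT 40 of the 44 members had a log2 mean CPM of 5 or more. Among all genes of that level, 3112 of 5475 lay above 0 in CR and 2928 of 5369 in TR. Their medians were 0.0786 and 0.0706. The median approximate SE of the members was 0.231 in CR and 0.292 in TR, compared with 0.107 in each of the matching liver comparisons, so a difference has to be larger in iWAT to pass. The plot of the iWAT values shows these wider intervals beside the shift to the right of 0.

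**Figure D2:**
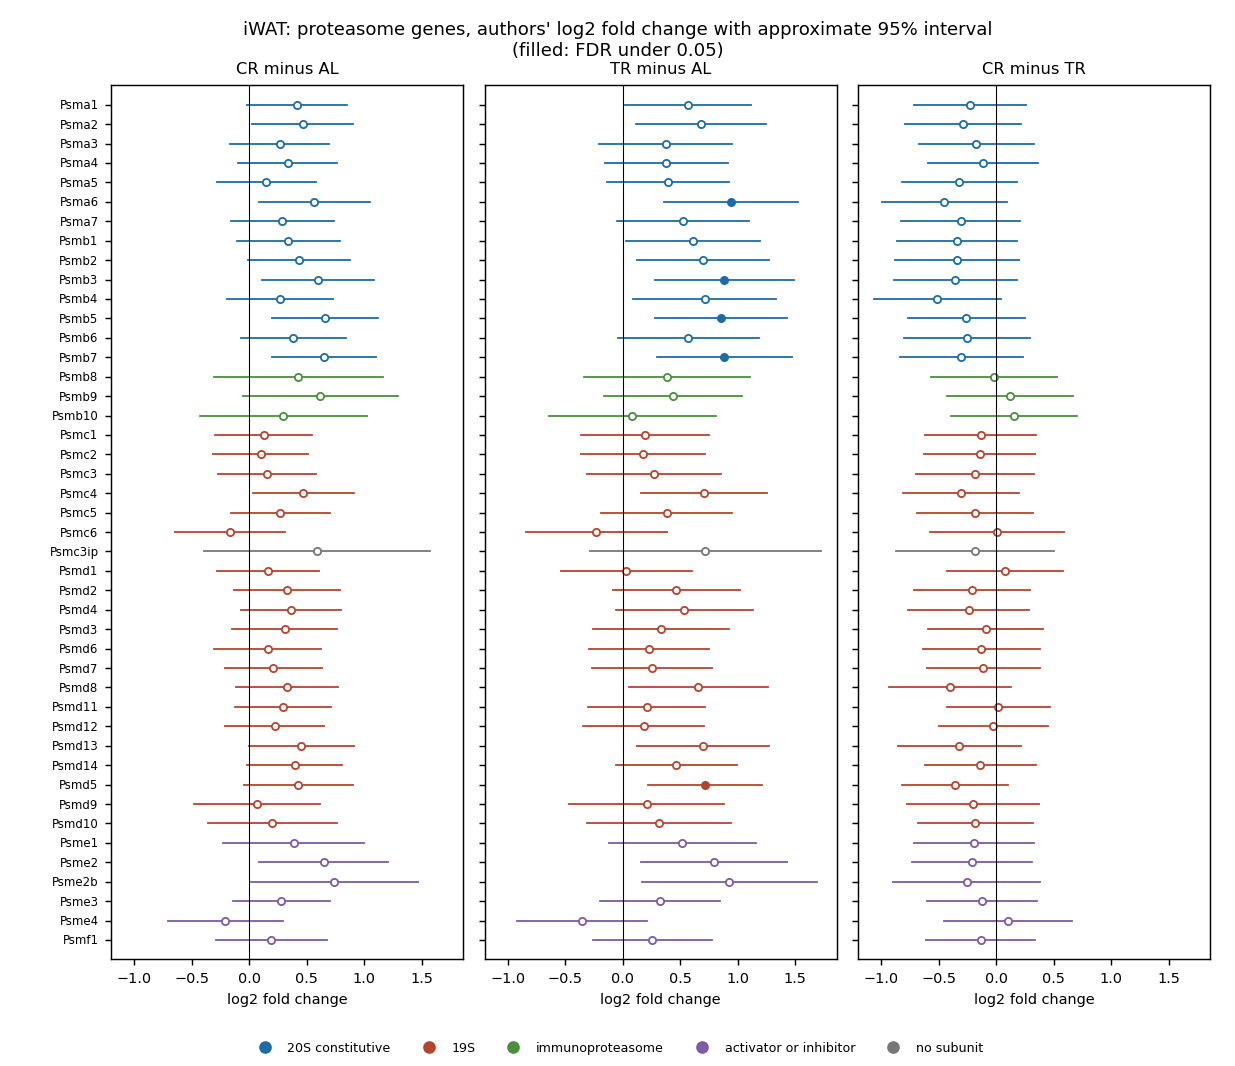
Log2 fold change of each proteasome gene in iWAT (x axis) for CR minus AL, TR minus AL and CR minus TR, from the authors' deposited tables, with lines for the approximate 95% interval and filled points for an FDR under 0.05. The 5 filled points lie in TR minus AL, 4 of them core genes, and Psmc6 and Psme4 lie left of 0 in both diets against AL.

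Of 14 core genes, 4 rose in iWAT in TR, and the median of the 14 was 0.65. None of the 5 members that rose in iWAT in TR, the 4 core genes included, passed in the stricter settings. The count was 0 with a t distribution of 10 degrees of freedom and 0 at an FDR under 0.01. In the authors' edgeR test, 15 of 44 members had an unadjusted p under 0.05, beside 3526 of all 15356 genes. Psma6, of the alpha ring, rose by 0.94 (SE 0.30, FDR 0.0217), or 92.4%, in the authors' deposited table, and had 0.57 in CR (FDR 0.159). Psmb3, a beta gene without an active site, rose by 0.88 (SE 0.31, FDR 0.0448). Of the constitutive catalytic genes, Psmb5 rose by 0.85 (SE 0.29, FDR 0.0393), Psmb7 rose by 0.88 (SE 0.30, FDR 0.0357), and Psmb6 had 0.57 (FDR 0.264) in the authors' deposited table. The same genes had the smallest FDRs of the members in CR, 0.66 for Psmb5 (FDR 0.0596) and 0.65 for Psmb7 (FDR 0.058), just short of the threshold. Psma5, the member with the largest liver fall, had 0.15 in CR (FDR 0.746) and 0.40 in TR (FDR 0.387) in iWAT in the authors' deposited tables.

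Of 20 genes of the 19S regulator, 1 rose in iWAT in TR, and the median was 0.24 in CR and 0.30 in TR. That gene was the base chaperone Psmd5, at 0.71 (SE 0.25) with an FDR of 0.0496, at the edge of the threshold, in the authors' deposited table. Psmc4, an ATPase, had 0.71 (FDR 0.0879), and Psmd13, a lid gene, had 0.70 (FDR 0.114). Psmc6 lay below 0, at -0.17 in CR and -0.23 in TR (FDR 0.742 and 0.702) in the authors' deposited tables. The immunoproteasome genes passed in 0 of 3 cases on each diet, with Psmb9 at 0.62 in CR (FDR 0.313) and 0.44 in TR (FDR 0.408). PA28 genes passed in 0 of 4, with medians of 0.52 and 0.66, and Psme2 had 0.65 (FDR 0.165) and 0.79 (FDR 0.0978) in the authors' deposited tables. Psme4 had -0.21 and -0.36 (FDR 0.698 and 0.482). Psmc3ip, the gene that is no subunit, had 0.59 and 0.72 with approximate SEs of 0.50 and 0.51.

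No member passed in the direct comparison of CR with TR in iWAT either. In CR minus TR, 0 of 44 passed, where 0.857% of all genes were lower in CR and 0.0612% higher. In the authors' edgeR test, 0 members had an unadjusted p under 0.05, beside 532 of all 14699 genes. Values lay below 0 for 38 of the 44, with a median of -0.19, beside 48.0% and 0.0133 for all genes. Among genes whose log2 mean CPM was 5 or more, 2955 of 4943 lay below 0, with a median of -0.0534. The approximate interval lay within 0.5 log2 units of 0 for 2 of 44 members, beside 2.52% of all genes, and within 1 unit for 43, so differences of moderate size between the diets were not detectable in iWAT. Markers of hepatocytes and skeletal muscle also differed in this comparison, as given below.

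At the transcript level in iWAT, 1 of 131 member transcripts rose in TR, where 2.03% of all transcripts did: the main transcript of Psma6, at 0.95 (FDR 0.0462) in the authors' deposited transcript table. In CR, 1 of 131 fell, where 1.03% did: a minor transcript of Psma6, at -7.11 with a log2 mean CPM of -1.37 (FDR 0.0354), a transcript of very few reads. The main transcript had the sign of its gene for 5 of the 5 genes that rose in TR, which is no independent support because its reads are part of the gene's.

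Lists of related genes were also read in iWAT, where 3.78% of all genes fell and 3.52% rose in CR. In TR, 5.24% of all genes fell and 4.76% rose. A count of 0 in lists this short is close to these shares. Assembly chaperones passed in 0 of 5 cases on each diet, with Pomp, the maturation factor of the core, at 0.50 in CR and 0.79 in TR (FDR 0.183 and 0.0509) in the authors' deposited tables. Proteasome-bound factors passed in 0 of 10 on each diet, and Usp14 had 0.15 and 0.17 (FDR 0.748 and 0.742). Of 11 factors that extract or carry ubiquitinated proteins, 1 fell and 0 rose on each diet. On each diet 9 of the 11 lay above 0, with medians of 0.13 in CR and 0.17 in TR. The shuttle Ubqln2 was the 1 that fell, with -0.96 and -1.22 (FDR 0.0146 and 0.00797) in the authors' deposited tables. Nfe2l1 had 0.40 and 0.27 (FDR 0.467 and 0.601), and Nfe2l2 had -0.12 and -0.06 (FDR 0.813 and 0.92). Of the 10 NFE2L1 and NFE2L2 regulators measured, 1 rose on each diet (FDR 0.0473 in CR and 0.0117 in TR, authors' edgeR test) and 0 fell. Of 6 ubiquitin genes and activating enzymes, 1 rose in CR (FDR 0.031 in that test) and 0 passed in TR. Of 14 NFE2L2 targets, 3 rose in CR and 4 in TR, and 0 fell. MHC class I genes passed in 0 of 13 cases and interferon response genes in 0 of 17 on each diet.

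Markers of other tissues were present in the iWAT tables and differed between groups. Hepatocyte markers fell in 7 of 9 cases in CR, with a median of -3.67, and had a median of 2.09 in TR with 0 of 9 past the threshold. Alb, the albumin gene of hepatocytes, had -1.96 in CR and 2.92 in TR (FDR 0.116 and 0.0775) in the authors' deposited tables. Skeletal muscle markers had a median of 1.16 in CR with 0 of 10 past, and fell in 5 of 10 cases in TR with a median of -2.97. B and T lymphocyte markers lay above 0 for 10 of 10 on both diets, with medians of 1.18 and 0.91 and 0 past. Of 8 adipocyte markers 0 passed in CR, with values from -1.002 to 0.41, and in TR Lep fell while Fabp4 and Retn rose, with values from -0.96 to 0.81. Fibroblast markers lay below 0 for 5 of 5 on both diets, with medians of -0.81 and -0.95, and 1 passed in CR (Dcn) and 2 in TR (Dcn and Pdgfra). The endothelial marker Tek fell on both diets, 1 of 6 in its list. Macrophage markers lay below 0 for 8 of 10 in CR and 6 of 10 in TR, and Itgam fell in TR. General leukocyte markers passed in 0 of 7 cases and erythroid markers in 0 of 5 on each diet. In CR minus TR, 9 of 9 hepatocyte markers were lower in CR, with a median of -5.74. In the same comparison 9 of 9 muscle markers lay above 0 and 3 passed as higher, with a median of 4.07. Of all genes, 0.857% were lower and 0.0612% higher there, and the other marker lists had 0 past the threshold. All 9 hepatocyte, 10 muscle and 10 lymphocyte markers were measured in iWAT against AL, so none of these lists was absent. The part of these cells in the proteasome values was not tested.

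The liver and iWAT values of the same member were then compared directly. The difference, iWAT minus liver, was tested for 43 members with an approximate normal test, adjusted over the 12012 genes in both tables for CR and 12201 for TR. In CR minus AL, 13 of 43 members were higher in iWAT than in liver relative to AL and 0 were lower, where 3.09% of all genes were higher and 3.65% lower. The difference was above 0 for 42 of 43, against 52.6% of all genes, with a median of 0.60 against 0.03. In TR minus AL, 15 of 43 members were higher and 0 lower, where 4.16% and 3.65% of all genes were. The difference was above 0 for 41 of 43, against 49.5%, with a median of 0.77 against -0.01. With a t distribution of 20 degrees of freedom the difference passed for 1 member in CR and 7 in TR, and with a correlation of -0.3 between the tissues, from which 16 of the 20 mice gave both, it passed for 4 in CR and 12 in TR. Plotting liver against iWAT values places nearly all members above the line of equal values, with Psme4 on both diets and Psmb10 in TR below it.

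**Figure D3:**
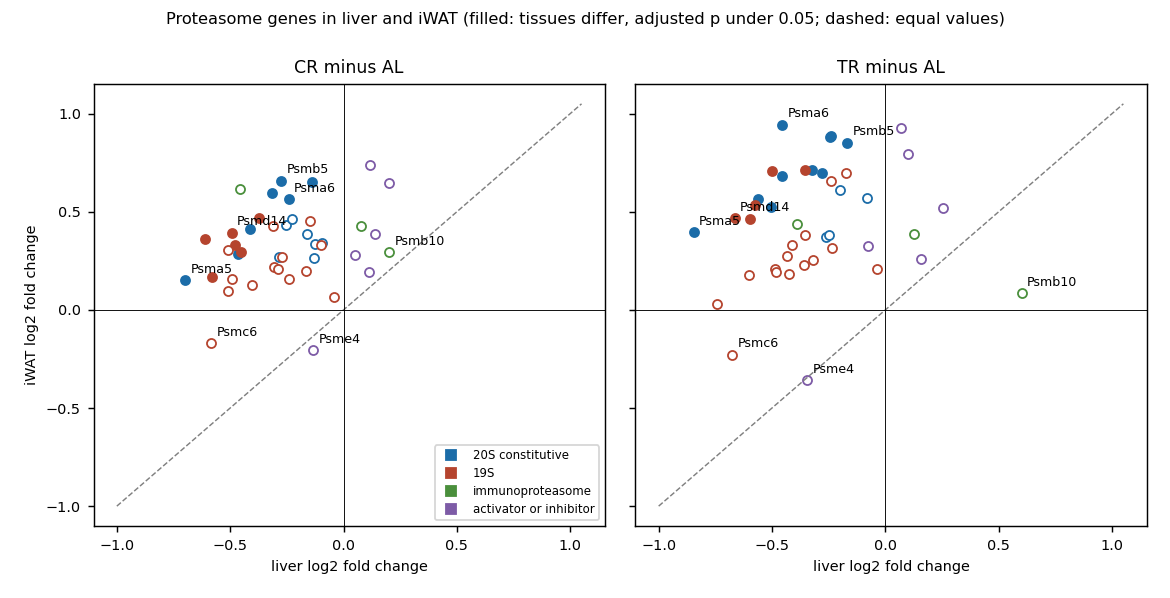
Log2 fold change of each proteasome gene in liver (x axis) and iWAT (y axis) for CR minus AL and TR minus AL, coloured by group, with filled points for genes whose values differ between tissues (adjusted p under 0.05) and a dashed line of equal values. Most points lie left of 0 and above 0, and Psmc6 lies below 0 in both tissues.

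The genes that differed belonged to the core and to the 19S regulator. In CR, 7 of 14 core genes and 6 of 20 genes of the 19S regulator differed, and in TR 10 of 14 and 5 of 20 did. The median difference of the core was 0.72 in CR and 1.03 in TR, and that of the 19S regulator was 0.60 and 0.74. Psma6 had the largest difference in TR, 1.40 (interval 0.78 to 2.02, adjusted p = 0.000547 by the approximate test), from -0.46 in liver and 0.94 in iWAT in the authors' deposited tables. Psma5 differed by 1.24 in TR (interval 0.68 to 1.81, adjusted p = 0.000874) and by 0.85 in CR (adjusted p = 0.0129). Psmd14 differed by 1.13 and 0.89 (adjusted p = 0.00328 and 0.00688), and Psmc4 by 1.21 and 0.84 (adjusted p = 0.00219 and 0.017), in TR and CR. The catalytic genes Psmb5 and Psmb7, which passed in liver on neither diet, differed by 0.93 and 0.79 in CR (adjusted p = 0.0138 and 0.0338) and by 1.02 and 1.12 in TR (adjusted p = 0.0261 and 0.00957). Immunoproteasome genes differed in 0 of 3 cases and activator or inhibitor genes in 0 of 6 on each diet, with median differences of 0.35 and 0.26 for the first group and 0.24 and 0.33 for the second. Psmb9 had the largest difference of all members in CR, 1.07, but with a wide interval of 0.30 to 1.85 (adjusted p = 0.0778 by the approximate test). In TR it had 0.83 (adjusted p = 0.186). Psmb10 had 0.09 in CR and -0.52 in TR (SE 0.43 each). A small difference of the immunoproteasome genes is therefore not shown. In CR minus TR, 0 of 43 members differed between tissues, where 0.0505% of all genes were higher in iWAT and 1.19% lower. In the approximate test, 1 member had an unadjusted p under 0.05, beside 606 of all 11878 genes.

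By role, medians lay below 0 in liver and above 0 in iWAT for each role of the core and the 19S regulator plotted (Psma8 is not among them), and above 0 in both tissues for PA28 and the inducible subunits, as the plot of medians by role shows. In liver the medians ran from -0.58 for the non-ATPase base to -0.16 for the catalytic genes in CR and from -0.60 to -0.17 in TR. In iWAT the order of these roles was different, with the highest medians at the catalytic genes (0.65 in CR and 0.85 in TR) and lower ones at the ATPase ring (0.14 and 0.23). In liver, point values ran from -0.61 to -0.48 in CR and -0.74 to -0.58 in TR for the 3 genes of the non-ATPase base. For the 3 catalytic genes they ran from -0.27 to -0.14 and from -0.24 to -0.08. Intervals of single genes of these 2 roles overlap, such as -0.68 to -0.27 for Psmd2 and -0.52 to -0.02 for Psmb5 in CR. The ranges of several other roles overlapped. In iWAT in TR the point values were 0.57 to 0.88 for the catalytic genes and 0.03 to 0.53 for the non-ATPase base. The median approximate SEs of these 2 roles were 0.30 and 0.29, so the ranges are not shown to be apart. Differences between roles were not tested.

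**Figure D4:**
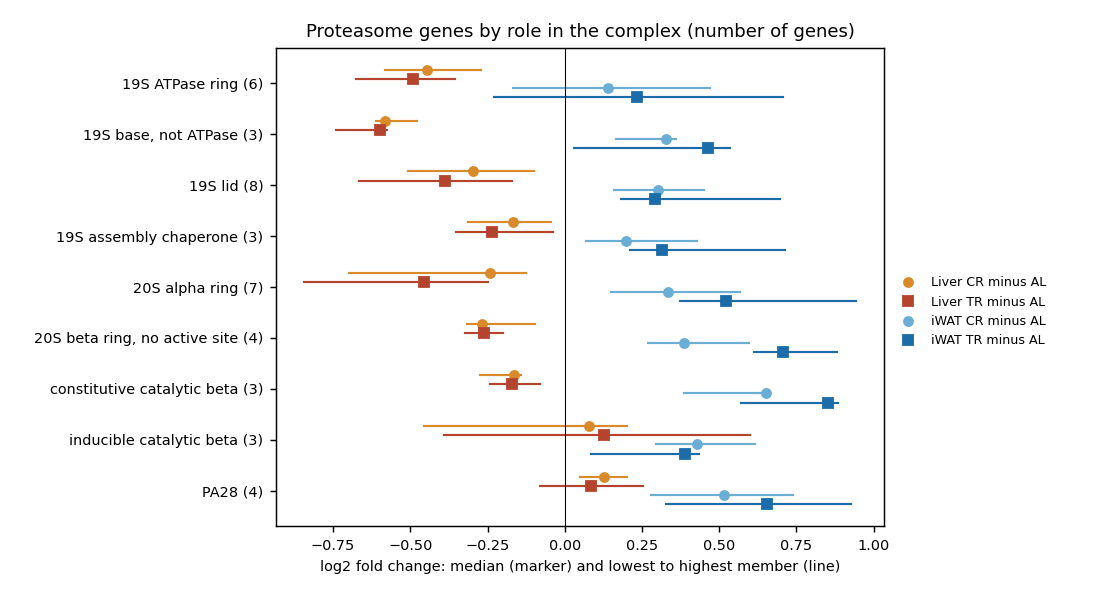
Median log2 fold change of the genes of each role (marker) with the lowest and highest member (line) for CR and TR against AL in liver and iWAT, from the authors' deposited tables, with the number of genes in brackets. Liver medians lie below 0 for the 19S and constitutive core roles, and iWAT medians lie above 0 in each role shown.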

How the data were processed

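Total RNA of liver and iWAT was sequenced from Illumina TruSeq libraries, per the labels' protocols. The tools named for the reads are bcl2fastq 2.20, STAR 2.5.3a and RSEM on GRCm38.p5, per the submitters' processing notes. The authors fitted edgeR generalized linear models to pairs of groups, per the file headers. The authors' edgeR version, filter, normalization and annotation are given in none of the sources used here. The 12 tables hold the authors' log2 fold change and log2 mean CPM (log2), their likelihood-ratio statistic (a score), and their p-value and FDR, per the file headers. They hold no counts, so depth is unknown and the planned count model was replaced by the deposited FDR under 0.05, 2-sided. The deposited p-value lay within 5e-06 of the chi-square tail of the statistic.

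The approximate SE was the absolute log2 fold change divided by the square root of that statistic. The tissue test took both tissues of a mouse as uncorrelated and was tested on simulated data; p-values were adjusted by Benjamini-Hochberg. Python 3.11.15, pandas 2.3.3 and scipy 1.17.1 were used. Alternatives were other FDR thresholds, t distributions, an expression minimum, centring, transcript tables and tissue correlations. Members, gene lists and tests were chosen with earlier results of these data known. Named in full were, for each tissue and diet, the 3 members of each group with the smallest FDR, the constitutive catalytic genes, members that passed against the majority or differed between tissues, and up to 4 genes per other list. Some genes that this rule names are not reported here.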

Additional observations from a re-analysis of the deposited data

Results flagged for a closer look

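The diet response of 13 members in CR and of 15 in TR differed between iWAT and liver by the approximate test of the difference, and each is given as iWAT minus liver in log2 units. The test is approximate: with 20 degrees of freedom 1 member passed in CR and 7 in TR, and with a correlation of -0.3 between tissues 4 passed in CR. The shares of all genes in those settings are not given here. In CR minus AL the differences were 0.85 for Psma5, 0.75 for Psmd1, 0.97 for Psmd4, 0.75 for Psma7, 0.89 for Psmd14, 0.81 for Psmd2 and 0.75 for Psmd11. They were 0.83 for Psma1, 0.84 for Psmc4, 0.91 for Psmb3, 0.81 for Psma6, 0.93 for Psmb5 and 0.79 for Psmb7. In TR minus AL the differences were 1.24 for Psma5, 1.13 for Psmd14, 1.13 for Psma1, 1.06 for Psmd2, 1.03 for Psma7, 1.21 for Psmc4, 1.11 for Psmd4 and 1.14 for Psma2. They were 1.40 for Psma6, 1.07 for Psmd5, 1.04 for Psmb4, 0.98 for Psmb2, 1.12 for Psmb7, 1.13 for Psmb3 and 1.02 for Psmb5. In each case the iWAT value lay above 0 and the liver value below 0. Both diets were set against the same AL libraries of a tissue, so the CR and TR differences are not independent.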

How the results depend on the processing

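With t distributions of 10 degrees of freedom, 10 members passed in liver in CR, 15 in liver in TR and 0 in iWAT in TR, in place of 17, 24 and 5. In the transcript tables, where more features are tested, 9, 13 and 1 transcripts passed in these comparisons, and 1 passed in iWAT in CR. At an FDR under 0.10, 2 passed in iWAT in CR, both higher, and at an FDR under 0.01, 0 passed in iWAT in TR. The tissue difference in CR passed for 20 members with a correlation of 0.3 between tissues, 4 with -0.3, 1 with 20 degrees of freedom and 2 at an adjusted p under 0.01, in place of 13. In TR it passed for 7 with 20 degrees of freedom and 8 at 0.01, in place of 15. For the t distributions, correlations and other thresholds, the share of all genes passing is not given here. The member counts in those settings therefore show no excess by themselves. No called value reversed, and no median changed sign when centred or taken through the other 2 tables. The other 2 comparisons of a tissue rest on the same libraries, and the main transcript is part of its gene. A shared sign in these settings is therefore no independent support. Of 264 values of single members, 21 lost their call with 10 degrees of freedom and 25 in the main transcript. Centring on the median of all genes left the 6 diet counts as they were.

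No paired analysis was possible because the tables hold no value per library, and for the same reason leaving out a library was not run. Precision is limited by 6 libraries per group, and the approximate SEs were larger in iWAT, for reasons that were not tested.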
